A study of Homo sapiens with 11 samples.

Results

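Genes for 10 secreted inflammatory signals were followed in 2 prostate cancer cell lines with and without overexpression of the sialyltransferase ST6GAL1. They are the neutrophil-attracting CXC chemokines CXCL1, CXCL2, CXCL3, CXCL5 and CXCL8, the CC chemokines CCL2 and CCL20, and the cytokines IL1A, IL1B and IL6. The genes were taken by symbol, and the rows of all 10 were found among the 28395 genes that both count tables list. RNA-Seq had been carried out on PC3 cells, a line derived from a bone metastasis, and DU145 cells, a line derived from a brain metastasis. Each line carried either a lentivirus for ST6GAL1 or a negative control (Lenti-ORF control), so the control cells were also transduced, and stable populations were compared with no further treatment. ST6GAL1 adds sialic acid to the ends of N-glycans in an α2-6 linkage. The promoter of the construct is not given in the sources used here.

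Chemokines are small secreted proteins that draw leukocytes along a gradient. The CXC members named here share a Glu-Leu-Arg motif before the first cysteines and act on the receptors CXCR1 and CXCR2 of neutrophils, while CCL2 recruits monocytes through CCR2 and CCL20 recruits lymphocytes and dendritic cells through CCR6. IL1A and IL1B signal through IL1R1 and MYD88 to NF-κB, which is a known activator of the CXC chemokine genes and of IL6, and IL6 signals through IL6R, IL6ST and STAT3. In prostate cancer cells CXCL8 and IL6 are known as secreted products.

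The data held 3 control and 3 overexpression libraries of PC3, and 3 control and 2 overexpression libraries of DU145, the latter numbered replicates 2 and 3. Replicates are labelled as biological, and where they were not grown as separate cultures the p-values below measure only the spread between these libraries. Total counts per library ran from 13194485 to 18201359, so that a count of 3, taken as the floor, stood for 0.165 to 0.227 CPM (counts scaled to a common library total), an allowance for counting error only. The 2 DU145 overexpression libraries differed from each other more than any other replicates did, with a chi-square per degree of freedom of 14.4 over genes against 1.4 to 5.85 elsewhere. ST6GAL1 itself rose from 2.71 ± 0.538 to 32.6 ± 0.814 normalised CPM in PC3 (SD, n = 3 each) and from 12.9 ± 1.45 (SD, n = 3) to 322.9 ± 35.2 (SD, n = 2) in DU145. Epithelial keratins KRT8 and KRT18 were read at 3768 to 9185 and 2967 to 5556 counts per library, whereas the prostate markers KLK2 and KLK3 were at 0 in every library. Of 16 leukocyte markers 7 to 9 were at 0 in each group, including CD163, CD3E, CD2, MS4A1 and NKG7 in all 4 groups. Others were read, and the list summed to 20.4 to 22.6 CPM in PC3 controls and 20.8 to 22.6 CPM in PC3 overexpression libraries. Most of that sum was CD68, at mean levels of 21.1 and 20.4 CPM in PC3, control and overexpression, and of 56.8 and 53.3 CPM in DU145. CD79A was at 10.3 and 12.1 CPM and CD14 at 1.70 and 2.63 CPM in DU145. PTPRC had 4 to 7 counts in PC3 controls and 9 to 13 with overexpression. The 11 epithelial and prostate markers summed to 878 to 911 and 906 to 915 CPM in PC3 and to 1322 to 1360 and 1068 to 1198 CPM in DU145, control and overexpression. Within this list the adhesion protein E-cadherin (CDH1) rose in PC3 from 9.18 to 23.8 CPM, by 1.37 on the log2 scale (SE 0.0804, adjusted p = 7.85e-18 from edgeR), and TMPRSS2 rose by 0.70 (SE 0.179, adjusted p = 0.00186 from edgeR), while in DU145 the leukocyte integrin ITGAX fell from 13 to 21 counts in controls to 6 and 7 (-1.51, SE 0.423, adjusted p = 0.0217 from edgeR, not called with DESeq2). The part of these marker levels in the results was not tested. In DU145 the leukocyte list summed to 66.794 to 74.999 CPM in controls and to 65.629 and 71.509 CPM with overexpression, so that the groups overlapped.

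The stretch of promoter just before the start site shows what the CXC chemokine genes share in sequence. The 5 genes lie in a single cluster on chromosome 4, and the 130 bases before each start site are printed 5′ to 3′ on the gene's own strand from the RefSeq annotation of GRCh38.p14, together with those of IL6 on chromosome 7 for comparison. Capitals mark κB-type motifs, GGAATTTCC or the looser GGNNTTTCC which contains it, and the TATA motif TATAAA. CXCL1 is at chr4:73869263-73869392 (+), CXCL2 at chr4:74099196-74099325 (-), CXCL3 at chr4:74038690-74038819 (-), CXCL5 at chr4:73998678-73998807 (-), CXCL8 at chr4:73740439-73740568 (+) and IL6 at chr7:22727070-22727199 (+).
CXCL1: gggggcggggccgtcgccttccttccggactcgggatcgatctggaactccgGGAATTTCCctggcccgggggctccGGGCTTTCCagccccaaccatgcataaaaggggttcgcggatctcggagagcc
CXCL2: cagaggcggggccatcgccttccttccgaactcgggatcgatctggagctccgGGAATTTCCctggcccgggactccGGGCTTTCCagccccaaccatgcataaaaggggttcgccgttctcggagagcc
CXCL3: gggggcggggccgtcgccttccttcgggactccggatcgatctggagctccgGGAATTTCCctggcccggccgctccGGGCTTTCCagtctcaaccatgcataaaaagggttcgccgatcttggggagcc
CXCL5: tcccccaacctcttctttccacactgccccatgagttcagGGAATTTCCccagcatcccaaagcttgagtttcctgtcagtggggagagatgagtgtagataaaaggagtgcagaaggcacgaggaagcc
CXCL8: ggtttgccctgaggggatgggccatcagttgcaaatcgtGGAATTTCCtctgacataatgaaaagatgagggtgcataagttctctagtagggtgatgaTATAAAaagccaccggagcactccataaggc
IL6: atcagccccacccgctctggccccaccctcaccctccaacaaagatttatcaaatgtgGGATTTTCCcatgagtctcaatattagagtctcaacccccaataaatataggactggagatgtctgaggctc

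Each of the 5 CXC promoters held GGAATTTCC on the gene's strand, at position -78 in CXCL1, -77 in CXCL2, -78 in CXCL3, -90 in CXCL5 and -91 in CXCL8. Over windows of 250 bases before to 50 bases after the start site, searched on both strands, that motif was found in 162 of 35116 promoters (0.461%). CXCL1, CXCL2 and CXCL3 also held GGGCTTTCC at -53, and IL6 held GGATTTTCC at -72. The looser GGNNTTTCC occurred in 6.26% of promoters and in 7 of the 9 member promoters in the table, the 5 CXC genes, IL6 and CCL20, where it lay on the opposite strand at -79. It was not among the letters of the IL1A and IL1B windows, and no sequence is shown for CCL2. The AP-1 motif TGANTCA was in the windows of CXCL8 and IL1A (7.71% of all promoters), the C/EBP-type motif TTNNGCAA in those of CXCL2, IL1B and IL6 (10.5%), and TATAAA in those of CXCL8, CCL20 and IL1A (11.5%). Among the other CXC chemokines with a promoter in the table, CXCL6, CXCL10 and CXCL11 of 10 held GGAATTTCC. These are matches of letters, and binding was not measured here.

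In PC3 cells 5 of the 10 genes were called lower with ST6GAL1 overexpression by edgeR, limma-voom and DESeq2, and none was called higher by any of them. CXCL8, CXCL5, CXCL2, CXCL3 and IL1B passed the test, CXCL1 was lower but by less than the fold change threshold, and IL6, IL1A, CCL20 and CCL2 had too few reads to be tested. Called here means a Benjamini-Hochberg adjusted p below 0.05 together with a log2 fold change (log2FC) beyond 0.58 in either direction, from edgeR's quasi-likelihood test on 13544 genes. Of these, 5.38% were called, 1.76% lower and 3.61% higher. By adjusted p alone 37.3% passed, 18.5% lower and 18.8% higher, and all 6 genes of the set that were tested passed lower. The 6 chemokine and cytokine genes that were tested had a median log2FC of -0.94, where the median of all genes tested was -0.00. In such bulk libraries fewer cells making a transcript and less transcript per cell cannot be told apart.

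CXCL8, the main neutrophil attractant of the family, had the most reads of the 10 genes in PC3 controls. The controls held 2136, 1907 and 1729 counts, and cells with overexpression 674, 903 and 753. Every overexpression library lay far below every control library. The normalised level fell from 117.9 ± 4.24 to 47.8 ± 1.99 CPM (SD, n = 3 each), a log2FC of -1.30 (SE 0.0417, adjusted p = 8.22e-27 from edgeR), and it ranked 37 from the lowest of the 13544 genes tested.

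CXCL5, an epithelial neutrophil attractant, fell the most of the 6 genes tested in PC3. It had 194, 175 and 156 counts in controls and 55, 60 and 67 with overexpression, again without overlap. Its normalised level was 10.7 ± 0.468 and 3.77 ± 0.460 CPM (SD, n = 3 each), a log2FC of -1.51 (SE 0.122, adjusted p = 1.99e-13 from edgeR). Of the 2362 stretches of 75 bases in its main transcript, the read length of the study, 8.64% occur in transcripts of other genes (GLYR1 and ENSG00000287037, either strand). How reads from those stretches were counted is not known.

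CXCL1, CXCL2 and CXCL3 are close paralogs, first known as GRO melanoma growth-stimulating factors. CXCL2 had 85, 92 and 73 counts in PC3 controls and 45, 39 and 40 with overexpression. CXCL3 had 144, 110 and 109 counts in controls and 51, 82 and 63 with overexpression. Neither gene's groups overlapped, and the log2FC values were -0.996 for CXCL2 (SE 0.169, adjusted p = 7.17e-06 from edgeR) and -0.88 for CXCL3 (SE 0.135, adjusted p = 1.23e-06 from edgeR). CXCL1 had 1351, 1302 and 1291 counts in controls and 839, 987 and 877 with overexpression. Its groups were also separate, at 80.9 ± 4.62 and 55.8 ± 1.35 CPM (SD, n = 3 each), but the log2FC of -0.54 (SE 0.0443, adjusted p = 3.84e-13 from edgeR) was smaller than the threshold. Of the stretches of 75 bases in CXCL1, CXCL2 and CXCL3, 3 of 1100, 26 of 1041 and 23 of 1001 are shared letter for letter with another member of the trio. Shorter trimmed reads and reads with mismatches were not considered, so assignment to the wrong paralog was not tested.

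**Figure D1:**
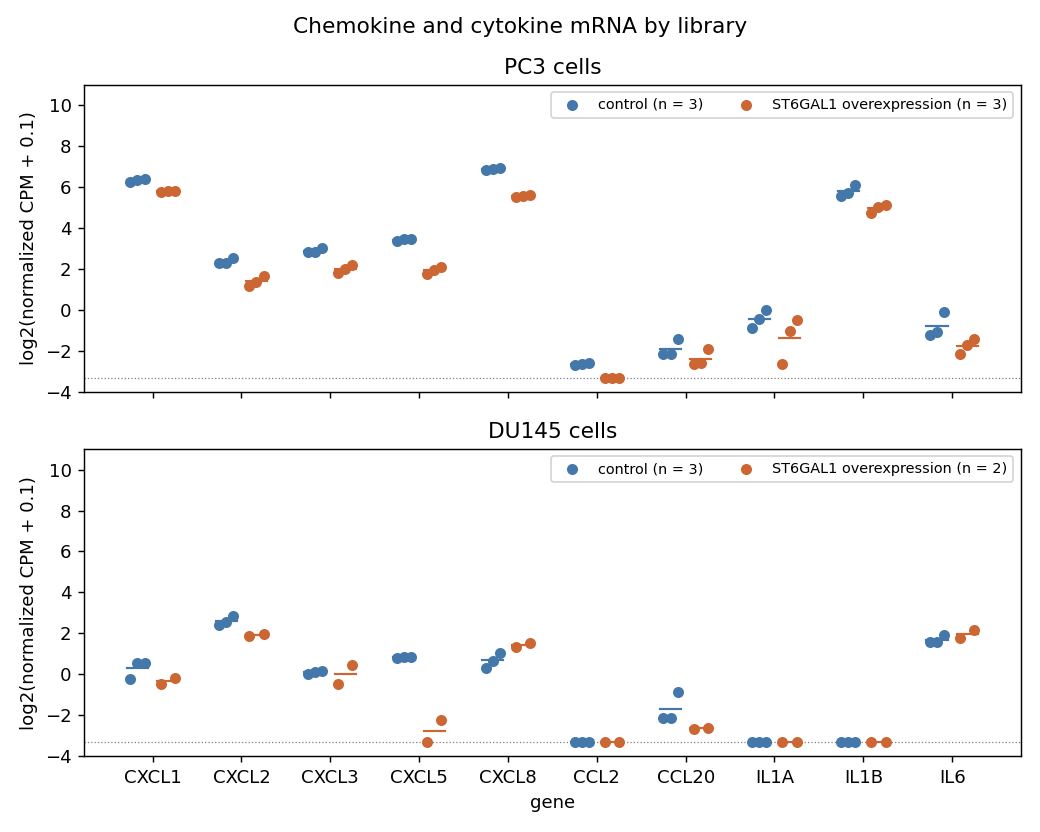
Level of each gene in each library as log2(normalised CPM + 0.1) in PC3 (upper panel) and DU145 (lower panel), with controls in blue, ST6GAL1 overexpression in orange, points within a group ordered by value, short lines at the mean of the plotted values and a dotted line at 0 reads. In PC3 the orange points of CXCL1, CXCL2, CXCL3, CXCL5, CXCL8 and IL1B all lie below the blue ones, whereas in DU145 the widest gap is that of CXCL5 and the orange points of CXCL8 lie above the blue ones.

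IL1B, which is cleaved by caspase-1 to its active form, was read at 856, 1075 and 806 counts in PC3 controls and at 398, 642 and 517 counts with overexpression. All overexpression libraries were below all controls, but the spread was wide, at 56.3 ± 10.6 against 31.8 ± 4.25 CPM (SD, n = 3 each). The log2FC was -0.81 (SE 0.193, adjusted p = 0.0349 from edgeR). The call was lost without a filter on low counts (adjusted p = 0.0538 from edgeR) and in 4 of 6 fits with a library left out, those without control replicate 3 (0.0868) and without overexpression replicates 1 (0.0974), 2 (0.0794) or 3 (0.104), while the log2FC stayed between -0.92 and -0.65.

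The remaining cytokines and CC chemokines were close to the floor in PC3. IL6, the ligand of IL6R, had 6, 6 and 13 counts in controls and 3, 5 and 2 with overexpression. Summed over libraries this is a ratio of 0.399 relative to depth, with a 95% counting interval of 0.171 to 0.861, and in a fit without the filter the log2FC was -1.29 (adjusted p = 0.0808 from edgeR). IL1A, the form of IL1 that is active without cleavage, had 8, 10 and 14 counts against 9, 7 and 1, a ratio of 0.530 with a counting interval of 0.276 to 0.984 (adjusted p = 0.164 without the filter, from edgeR). CCL20 had 5, 2 and 2 counts against 1, 3 and 1. CCL2 had a single count in each control library and 0 in each overexpression library. At this depth no difference of CCL2 or CCL20 was detectable.

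In DU145 cells with ST6GAL1 overexpression CXCL5 was lower and CXCL8 lay above the controls without passing the test. CXCL5 and CXCL2 passed the test, both lower, among 6 genes tested (CXCL1, CXCL2, CXCL3, CXCL5, CXCL8 and IL6). Of the 13676 genes tested in DU145 8.94% were called, 4.61% lower and 4.33% higher, and by adjusted p alone 20.1% passed, 9.42% of all genes lower and 10.7% higher. The 6 genes had a median log2FC of -0.39, against -0.00 for all genes tested. IL1A, IL1B and CCL2 had 0 counts in all 5 DU145 libraries, and CCL20 had 2, 2 and 6 counts in controls and 1 in each overexpression library.

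CXCL5 fell close to 0 in DU145. The control libraries held 26, 26 and 23 counts and the overexpression libraries 0 and 2. The normalised level was 1.69 ± 0.0418 CPM in controls (SD, n = 3) and 0 and 0.111 CPM with overexpression, the latter under the floor. Summed over libraries the ratio was 0.0347 relative to depth, with a 95% counting interval of 0.00413 to 0.130. The fitted log2FC of -4.65 (SE 0.606, adjusted p = 0.000104 from edgeR) depends on the prior count and ran from -7.67 to -3.84 with each library left out. It ranked 10 from the lowest of the 13676 genes, but leaving out either overexpression library rests the value on a single library, which was assumed to vary like the others.

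CXCL2 had 79, 114 and 77 counts in DU145 controls and 58 and 64 with overexpression. Both overexpression libraries were below the controls, at 3.66 ± 0.133 (SD, n = 2) against 6.05 ± 1.03 CPM (SD, n = 3), a log2FC of -0.73 (SE 0.191, adjusted p = 0.0154 from edgeR). This call was lost with DESeq2 (adjusted p = 0.0611) and without control replicate 2, the library with 114 counts (-0.60, adjusted p = 0.1001 from edgeR).

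CXCL8 in DU145 had 30, 18 and 20 counts in controls and 43 in each overexpression library. The overexpression libraries were thus above all controls, at 2.59 ± 0.274 (SD, n = 2) against 1.53 ± 0.421 CPM (SD, n = 3). The log2FC of 0.75 (95% interval 0.16 to 1.33) had an adjusted p of 0.0687 from edgeR and was not called. It passed in a single fit over all 11 libraries (0.74, adjusted p = 0.0126 from edgeR) and with the replicate number as a block (0.98, adjusted p = 0.011 from edgeR). With each library left out it lay between 0.55 and 0.97 and was not called.

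The other DU145 genes did not pass. CXCL1 had 21, 22 and 10 counts in controls and 12 and 11 with overexpression, with a log2FC of -0.78 (95% interval -1.62 to 0.07, adjusted p = 0.190 from edgeR). CXCL3 had 14, 16 and 13 counts in controls and 20 and 11 with overexpression, with a log2FC of -0.05 (95% interval -0.88 to 0.78), which turned to 0.42 without overexpression replicate 3. IL6 had 56, 46 and 39 counts in controls and 67 and 59 with overexpression, with a log2FC of 0.26 (95% interval -0.20 to 0.71, adjusted p = 0.439 from edgeR). For these 3 genes the groups overlapped in normalised CPM. The intervals of CXCL1 and, only just, CXCL3 (lower end -0.884 against -0.878 in PC3) include the change seen in PC3.

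**Figure D2:**
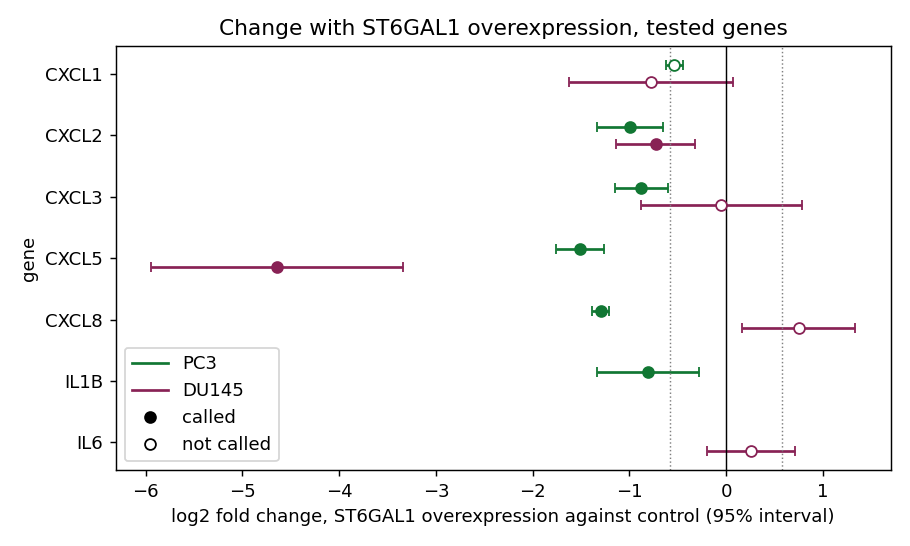
Log2 fold change of each tested gene (x axis, with its 95% interval) in PC3 (green) and DU145 (purple), filled where called, with dotted lines at the fold change threshold of 0.58 in either direction. The PC3 intervals all lie below 0, whereas in DU145 the interval of CXCL8 lies above 0, those of CXCL5 and CXCL2 below it and the other 3 span it.

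Whether the response differed between the lines was tested as the interaction of line and overexpression over all 11 libraries, given as the DU145 change minus the PC3 change. CXCL8 and CXCL5 passed at an adjusted p under 0.05, as did 19.7% of the 14952 genes tested (10.4% higher and 9.36% lower). CXCL8 had a difference of 2.04 on the log2 scale (SE 0.225, adjusted p = 2.04e-06 from edgeR), since its level was lower with overexpression in every PC3 library and higher in both DU145 libraries. CXCL5 had a difference of -3.14 (SE 0.625, adjusted p = 0.00124 from edgeR), with a fall in both lines that was steeper in DU145. It rests on 2 reads in the DU145 overexpression group and ran from -6.23 to -2.33 with each library left out. For the other members the difference was -0.25 for CXCL1 (95% interval -0.93 to 0.42), 0.26 for CXCL2 (-0.27 to 0.79), 0.82 for CXCL3 (0.03 to 1.61, adjusted p = 0.141 from edgeR) and 1.53 for IL6 (0.35 to 2.72, adjusted p = 0.0644 from edgeR). CXCL3 passed without DU145 overexpression replicate 3 (1.27, adjusted p = 0.0166 from edgeR), and IL6 passed without that library (1.71, adjusted p = 0.0217 from edgeR) or without PC3 control replicate 1 (1.79, adjusted p = 0.0490 from edgeR). The difference could not be estimated for IL1A and IL1B, which had no reads in DU145.

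The lines started from very different levels. Genes were set side by side as CPM per kilobase, with all annotated exons of a gene together as its length. The main transcript can be shorter (1174 bases for CXCL1 and 1642 for CXCL8), so the order of genes depends on the length taken. On this exon scale CXCL1 was the highest of the 10 in PC3 controls at 59.3 ± 3.30 (SD, n = 3). CXCL8 at 45.5 ± 1.65 and IL1B at 18.7 ± 3.49 came after it, although before scaling CXCL8 was above CXCL1 (117.9 against 80.9 CPM). CXCL5 followed at 4.39 ± 0.192, then CXCL2 at 3.66 ± 0.437 and CXCL3 at 3.32 ± 0.270, with the latter 2 within their spread of each other, and IL1A at 0.329 ± 0.116 led the genes near the floor. In DU145 controls CXCL2 was the highest at 4.34 ± 0.745 CPM per kilobase (SD, n = 3). CXCL1 at 0.864 ± 0.273, IL6 at 0.736 ± 0.105, CXCL5 at 0.696 ± 0.0165 and CXCL8 at 0.595 ± 0.163 came next and CXCL3 was at 0.438 ± 0.0203. On this scale CXCL2 lay above CXCL1 in every DU145 control library, whereas none of the genes after CXCL2 differed from the next beyond their spread. Before scaling IL6 was above CXCL1, at 3.17 ± 0.451 against 1.17 ± 0.370 CPM (SD, n = 3 each), and the main transcript of IL6 has 1127 bases. With overexpression the order in PC3 was CXCL1 at 40.8 ± 0.983, CXCL8 at 18.4 ± 0.766 and IL1B at 10.5 ± 1.41 CPM per kilobase.

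Between the control groups, CXCL8 and CXCL1 were lower in DU145 than in PC3 by log2FC of -6.25 (SE 0.107) and -6.07 (SE 0.118), and CXCL3 and CXCL5 by -2.92 (SE 0.205) and -2.65 (SE 0.159). IL6 was the exception, higher in DU145 by 2.62 (SE 0.298, adjusted p = 9.60e-08 from edgeR), and CXCL2 did not pass (0.25, 95% interval -0.07 to 0.57). IL1B, with 2737 counts over the PC3 controls and 0 in DU145, was at least 825.5-fold higher in PC3, and IL1A at least 9.65-fold higher, against a floor of 3 counts over the DU145 control group. With these, 7 of 8 genes tested were called, 6 lower and 1 higher in DU145. Of the 14952 genes tested, 64.9% were called between the control groups, 33.2% lower and 31.7% higher, and 86.3% passed by adjusted p alone. IL1A and IL1B passed the filter on low counts only through PC3, and IL6 only through DU145. Their calls are therefore not independent of the filter, and the count of 7 is not read as a result. The lines were counted in separate tables, and line and table cannot be told apart.

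Added together, the 5 CXC chemokines made up 218.9 to 227.5 normalised CPM in the PC3 controls and 113.5 to 114.5 CPM in the PC3 overexpression libraries. The composition moved as well, since CXCL8 fell more than CXCL1. CXCL8 gave 51.5% to 54.6% of the summed counts in controls and 40.5% to 43.6% with overexpression, and CXCL1 gave 34.6% to 38.4% and 47.7% to 50.4%. In DU145 the sum was 10.7 to 12.4 CPM in controls and 7.30 to 8.60 CPM with overexpression, and the share of CXCL8 was 9.18% to 17.6% in controls and 32.3% to 32.8% with overexpression. Neither line's groups overlapped in the sum or in the share of CXCL8, and these sums were not tested.

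**Figure D3:**
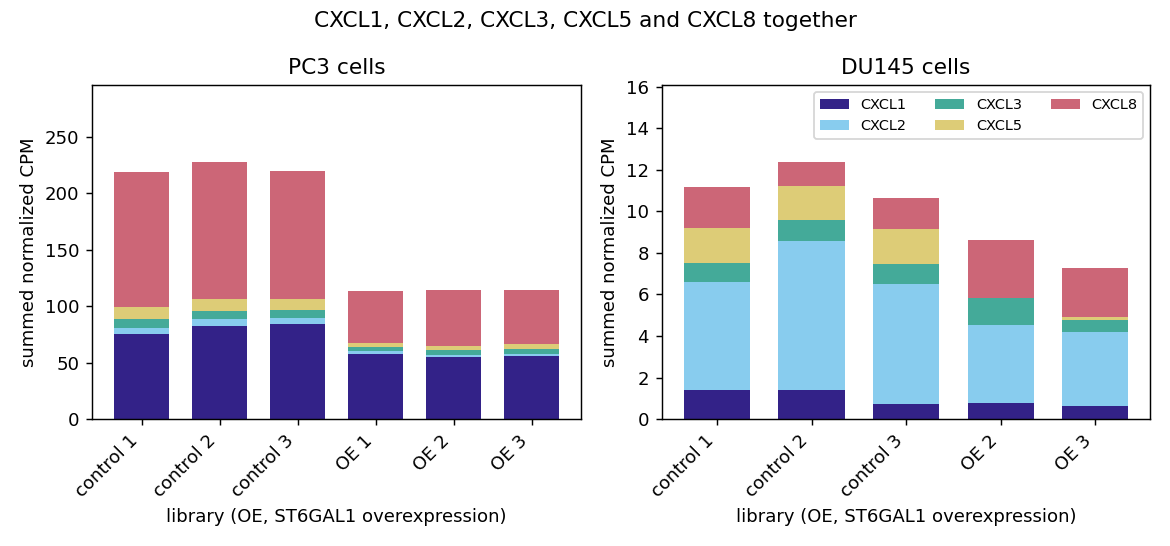
Normalised CPM of CXCL1, CXCL2, CXCL3, CXCL5 and CXCL8 stacked for each library of PC3 (left) and DU145 (right), with each line on its own linear axis from 0 and OE for ST6GAL1 overexpression. In PC3 the stacks drop from between 218.9 and 227.5 to between 113.5 and 114.5 CPM with the largest loss in CPM in CXCL8, while in DU145 the CXCL5 band nearly disappears.

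The chromosome 4 cluster spans CXCL8 (73740569 to 73743716, + strand), CXCL1 (73869393 to 73871308, +), CXCL5 (73995642 to 73998677, -), CXCL3 (74036589 to 74038689, -) and CXCL2 (74097040 to 74099195, -) on GRCh38, so that genes of both strands fell in PC3. Within 500000 bases of a member 14 further genes are annotated. CXCL6, which lies between CXCL8 and CXCL1 and also attracts neutrophils, fell in PC3 from 53.5 ± 2.61 to 32.9 ± 1.21 CPM (SD, n = 3 each), a log2FC of -0.70 (SE 0.0524, adjusted p = 1.97e-14 from edgeR). Among the 6 neighbours tested in PC3, the EGF-family ligand EPGN rose by a log2FC of 0.84 (SE 0.231, adjusted p = 0.00353 from edgeR), and RASSF6, MTHFD2L, EREG and AREG were not called. In DU145, 5 neighbours were tested and AREG, another EGF-family ligand, fell from 126.8 to 56.4 CPM, a log2FC of -1.17 (SE 0.0887, adjusted p = 8.81e-07 from edgeR). CXCL6 had only 50 counts over the 5 DU145 libraries and a log2FC of 0.07 (SE 0.453).

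**Figure D4:**
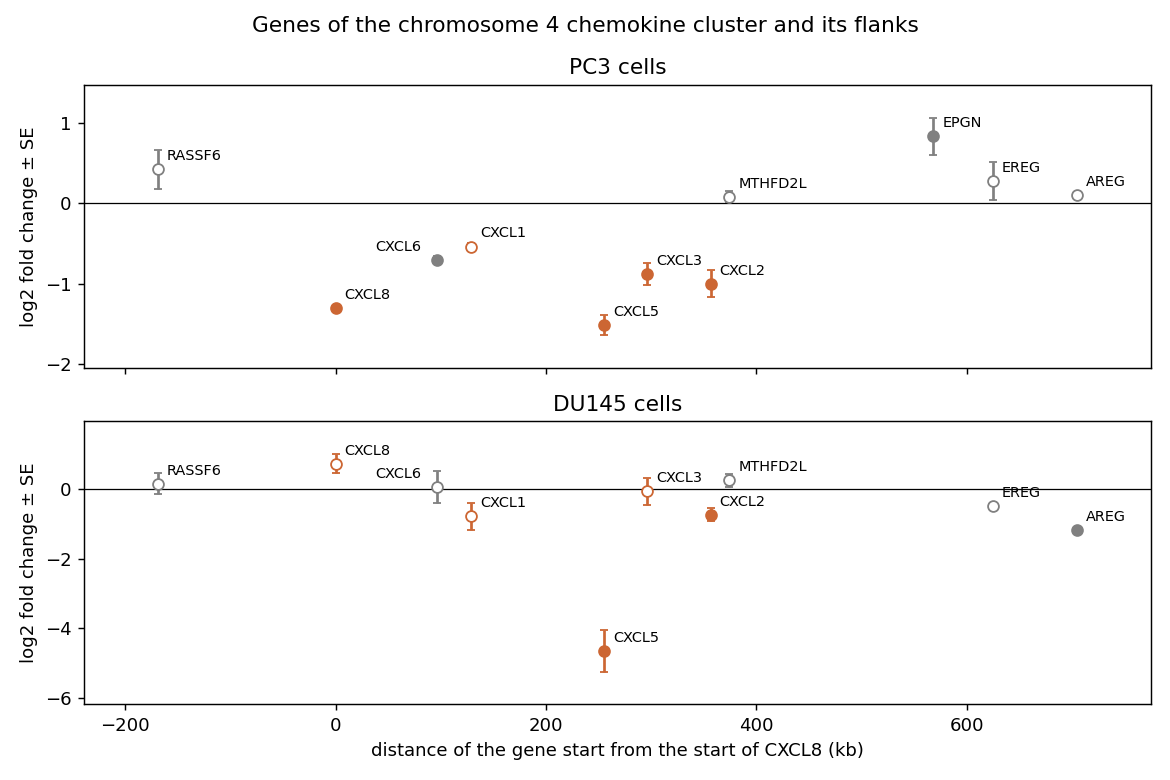
Log2 fold change ± SE of the tested genes around the chromosome 4 cluster against distance of the gene's lowest coordinate from that of CXCL8 in kb, for PC3 (upper panel) and DU145 (lower panel, wider y axis), with the 5 chemokine members in orange, neighbours in grey and called genes filled. In PC3 all 6 CXC genes lie below 0 and the flanking genes above it, while in DU145 CXCL5 lies far below the rest and AREG is also low.

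The other members sit on chromosomes 2, 7 and 17. IL1A (112773925 to 112784493, -) and IL1B (112829751 to 112836779, -) on chromosome 2 and CCL20 (227813842 to 227817556, +) on its far end had 27 neighbours in all. Of 15 tested in PC3, 1 was called (5.38% of all genes): the nuclear pore-related gene RGPD8 was lower (-0.63, adjusted p = 0.0285 from edgeR), a gene of a family of near-identical copies. Of 13 tested in DU145, 3 were called (8.94% of all genes): TM4SF20 was higher (1.51) and CHCHD5 (-0.73) and PSD4 (-0.60) were lower. Around IL6 on chromosome 7 (22727200 to 22731998, +) none of the 5 neighbours tested in PC3 or the 7 tested in DU145 was called by edgeR, limma-voom or DESeq2, and 2 in PC3 and 0 in DU145 had an unadjusted p under 0.05 in edgeR. The 8 neighbours of CCL2 on chromosome 17 (34255285 to 34257203, +) had no reads in either line.

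The receptors for these ligands were partly unread. CXCR1, CXCR2, CCR2 and ACKR1 had 0 counts in all 11 libraries and CCR6 at most 1. Of 15 receptor genes 7 were tested in PC3, with a median log2FC of -0.21 against -0.00 for all genes, 1 called higher and 1 lower. Of all genes 5.38% were called there. By adjusted p alone 5 of the 7 passed, where 37.3% of all genes did. The decoy receptor ACKR2 rose by a log2FC of 1.48 (SE 0.328) on 5 to 10 counts in controls and 19 to 25 with overexpression, and the IL33 receptor IL1RL1 fell by 0.63 on the log2 scale (SE 0.111). In DU145, 6 were tested with a median of 0.20, and IL1RL1 was called higher by 2.46 (SE 0.294, adjusted p = 4.65e-05 from edgeR), from 5 to 16 counts in controls to 69 and 76. It was the 1 receptor called, where 8.94% of all genes were. By adjusted p alone 3 of the 6 passed, where 20.1% of all genes did. The difference of IL1RL1 between the lines was 3.08 (SE 0.281, adjusted p = 1.82e-07 from edgeR). Of 8 receptors tested for a difference, 3 passed higher and 1 lower, where 19.7% of all genes passed. The others were IL6ST (0.55), IL6R (0.36) and ACKR2 (-1.52). IL1R1, the signalling receptor of IL1, was higher in DU145 than in PC3 controls by 3.33 on the log2 scale (SE 0.114), the line without IL1A and IL1B reads.

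Downstream signalling genes were counted in the same way, beside the 5.38% of all genes called in PC3 and the 8.94% called in DU145. Of the signalling adaptors 14 were tested in PC3 with a median log2FC of -0.04, and 5 had an adjusted p under 0.05, where 37.3% of all genes did. SOCS3, the feedback inhibitor of IL6 signalling, was the only gene of this list called there (-0.59, SE 0.0615, adjusted p = 2.36e-10 from edgeR). None of the 16 tested in DU145 was called by edgeR, limma-voom or DESeq2 (median 0.11), with 6 at an unadjusted and 2 at an adjusted p under 0.05 in edgeR. STAT3, the effector of IL6, had 0 counts in all 6 PC3 libraries and 4496 to 6676 in the DU145 libraries. Of 14 factors of mRNA decay, which bind AU-rich elements of cytokine transcripts, none was called in either line by these 3 tools (medians -0.08 in PC3 and -0.01 in DU145). In edgeR 7 of them in PC3 and 5 in DU145 had an unadjusted p under 0.05, and 6 and 2 an adjusted p.

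Of the transcription factors of the NF-κB, AP-1 and C/EBP families and related factors, 17 were tested in each line. In PC3 2 were called (5.38% of all genes) and 9 had an adjusted p under 0.05 (37.3% of all genes), and in DU145 4 were called (8.94%) and 6 had an adjusted p under 0.05 (20.1%). In PC3 (median -0.07) FOS rose by a log2FC of 1.35 (SE 0.324, adjusted p = 0.000927 from edgeR) and ATF3 fell by 0.66 on the log2 scale (SE 0.159, adjusted p = 0.000995 from edgeR). In DU145 (median -0.07) the immediate early factor EGR1 fell from 54.5 ± 8.30 (SD, n = 3) to 15.4 ± 0.699 CPM (SD, n = 2), by a log2FC of -1.82 (SE 0.134), and FOSL2 rose by 0.72 (SE 0.0794). CEBPB (0.74) and FOS (-1.35) were also called in DU145. FOS thus rose in PC3 and fell in DU145, with a difference of -2.70 (SE 0.598, adjusted p = 0.00840 from edgeR). The PC3 rise rests on few reads, 4 to 15 counts in controls and 18 to 37 with overexpression. The filter of at least 10 counts in every library drops the gene there. RELA, the main activating subunit of NF-κB, was at 147.5 ± 3.42 and 152.0 ± 3.04 CPM in PC3 (SD, n = 3 each). Other factors moved there without a call. CEBPB went from 48.6 ± 2.01 to 32.8 ± 4.34 CPM, NFKB1 from 53.1 ± 0.976 to 45.3 ± 0.514 and NFKBIZ from 75.4 ± 1.15 to 105.2 ± 4.27 (SD, n = 3 each). For CEBPB the difference between the lines was 1.31 (SE 0.223, adjusted p = 0.00261 from edgeR).

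Other inflammatory signals were few. Of 12 other CXC chemokines 2 were tested in each line, and in PC3 CXCL6 fell and CXCL16 rose (0.59, SE 0.153, adjusted p = 0.00201 from edgeR). In DU145 neither was called by edgeR, limma-voom or DESeq2 and 0 had an unadjusted p under 0.05. Of 16 other CC and CX3C chemokines neither of the 2 tested in PC3 was called by these tools or had an unadjusted p under 0.05, and CCL28, a mucosal chemokine and the only gene of this list tested in DU145, fell from 18.2 ± 1.31 (SD, n = 3) to 8.50 ± 0.0521 CPM (SD, n = 2), a log2FC of -1.10 (SE 0.131). The list of other IL1 and IL6 family genes had 8 tested in PC3 (median -0.14), of which the alarmin IL33 fell (-0.72, SE 0.214) but was not called with DESeq2, and 6 tested in DU145 (median -0.23), of which IL18 rose (0.69, SE 0.104) and IL11 fell (-0.61, SE 0.183), with 1 of the pair called with DESeq2.

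The list of other inflammatory cytokines had 4 of 7 tested genes called lower in PC3 (median -0.67), where 1.76% of all genes tested were called lower. IL15, a growth factor of natural killer cells, fell from 6.11 ± 0.613 to 3.58 ± 0.343 CPM (SD, n = 3 each), and IL24 fell by a log2FC of -1.13 (SE 0.295). The remaining genes called were IL12A (-0.67) and the granulocyte-macrophage growth factor CSF2 (-1.17), the latter on 11 to 16 counts in controls and 4 to 7 with overexpression. Without a call, IL23A (0.834 to 0.536 CPM) and IL32 (2.07 to 1.46 CPM) were also lower, and IL7 was higher (0.488 to 0.972 CPM). With DESeq2, 2 genes of this list were called. In DU145, 5 were tested (median -0.05) and IL24 rose by 1.79 (SE 0.361, adjusted p = 0.00300 from edgeR), opposite to PC3, with a difference of 2.92 (SE 0.466, adjusted p = 0.000144 from edgeR). IL24 had few reads, 22 to 36 counts in PC3 controls and 10 to 16 with overexpression. In DU145 it had 5 to 9 counts in controls and 27 and 31 with overexpression, and the filter of at least 10 counts in every library drops it there. TNF had 0 counts in all libraries.

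Genes for processing and release of IL1 were not called in PC3 with edgeR, limma-voom or DESeq2 (0 of 9, median -0.00), although 7 had an unadjusted and 5 an adjusted p under 0.05 in edgeR. In DU145, where neither IL1 gene was read, the inflammatory caspase CASP4 rose from 13.8 ± 2.57 (SD, n = 3) to 28.0 ± 2.41 CPM (SD, n = 2), a log2FC of 1.01 (SE 0.145), and the inflammasome sensor NLRP1 rose by 0.86 (SE 0.206), with 1 of the pair called with DESeq2.

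The genes whose levels ran most alike with CXCL8 over the 6 PC3 libraries were ETS1, INCENP, SLC3A2, IGDCC4 and PLAU, with Pearson's r of log2 normalised CPM between 0.998 and 0.9995 among 9817 genes with a mean of at least 10 CPM. SEMA3D and CD164 were the most opposed named genes, both at -0.999. CXCL1 ranked 348 from the top (r = 0.971) and IL1B 1026 (r = 0.923). These 6 points are 3 libraries from each group, so r mostly follows the difference between the groups, and PLAU, the urokinase-type plasminogen activator, fell by 0.73 on the log2 scale (adjusted p = 8.22e-27 from edgeR). Over the 5 DU145 libraries ACVR2B, MPDZ, TGOLN2, SAMD8 and APC were the most alike among 9537 genes and CRNDE, SLC25A26 and WDR55 the most opposed. Of these 8 genes none was called in DU145 by edgeR, limma-voom or DESeq2, and 4 had an unadjusted p under 0.05 in edgeR.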

How the data were processed

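Per the labels and the methods of the study, RNA was extracted with RNeasy, libraries were made with the TruSeq Stranded mRNA kit, and 75 base single reads were checked with FastQC, trimmed with Cutadapt, mapped to hg38 with HISAT2 and counted with featureCounts. The values the authors deposited are these counts per Entrez gene, without normalization, in a table per line. The counting annotation and strand setting are not given in the sources used here, so overlapping genes cannot be separated. Of 28395 genes 97.7% matched RefSeq.

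Here each line was fitted with edgeR 4.0.16 in R 4.3.3 (filterByExpr, TMM, robust quasi-likelihood test, Benjamini-Hochberg adjustment). Standard errors (SE) come from the fold change and F statistic. Normalised CPM are scaled by TMM within the line (levels per kilobase over all libraries, by GENCODE exon length). Calls needed an adjusted p below 0.05 with a log2 fold change beyond 0.58 in either direction, or the adjusted p alone for the difference between lines, which was an interaction over 11 libraries. limma 3.58.1 (voom), the tool the study used, DESeq2 1.42.0, RLE factors, no filter, at least 10 counts in every library, no fold change threshold, a replicate block, all libraries in 1 fit and each library left out were alternatives.

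Tested on simulated counts with 2-fold changes, the fit recovered 96.5% of 199 changed genes in PC3 with 1 false call among 13458 genes, 94.4% of 198 in DU145 with 4 among 13512, and 79.5% of 200 for the difference with 10 among 14812. Estimated coefficients of biological variation were 0.0226 (PC3), 0.0817 (DU145) and 0.0543 (all libraries). The simulation gave every gene this same coefficient and changed only genes with a mean of at least 10 counts. Its rates therefore do not cover genes that vary more between replicates or have fewer reads. Counting intervals are exact and cover counting error only. A library count of 3 was the floor.

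The 10 genes, the lists and the alternatives were chosen with earlier results of these data known. Text names all 10 genes, per line the 2 called genes of every list whose adjusted p was smallest, called neighbours, and the 5 genes most and 3 least like CXCL8 (1 of the latter in PC3 has no symbol in the tables and is not named). IL12A and CSF2 in PC3, FOS and CEBPB in DU145, and genes outside this rule were named after their values were seen. Promoters are from RefSeq. Proteins were not compared here.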

Additional observations from a re-analysis of the deposited data

Results flagged for a closer look

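By the test of the interaction, CXCL8 and CXCL5 responded to overexpression differently in PC3 and DU145. For CXCL8 the DU145 change minus the PC3 change was 2.04 on the log2 scale (standard error 0.225, adjusted p = 2.04e-06 from edgeR), with a fall in 3 of 3 PC3 overexpression libraries below all controls and levels above all controls in 2 of 2 DU145 overexpression libraries. The DU145 rise on its own was not called. For CXCL5 it was -3.14 (standard error 0.625, adjusted p = 0.00124 from edgeR), with a fall in both lines that was steeper in DU145, where 2 reads remained over both overexpression libraries. No cause was tested for either difference.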

How the results depend on the processing

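Among the members tested the direction turned only for CXCL3 in DU145 (between -0.66 and 0.42 with a library left out, the latter without overexpression replicate 3). Without a fold change threshold 5056 genes passed in PC3 and 2747 in DU145. Members called in DU145 numbered 1 with DESeq2, which lost CXCL2, and 1 with at least 10 counts in every library, a filter that dropped CXCL5. That filter, which tests fewer genes, also left 1 member called for the difference between lines and 3 between the controls. With each library left out, genes called in DU145 ranged from 830 to 2072, the highest without overexpression replicate 3, and members called from 1 to 2, the lowest without control replicate 2. For the difference, genes called ranged from 2287 to 5161 and members from 2 to 4, both highest without DU145 overexpression replicate 3. Members called in PC3 ranged from 4 to 6. In the lists, DESeq2 called 0 other IL1 and IL6 family genes and 2 other inflammatory cytokines in PC3, and 1 IL1 and IL6 family gene, 1 IL1 processing gene and 0 leukocyte markers in DU145. With at least 10 counts 1 receptor and 1 transcription factor were called in PC3, and 0 receptors, 0 other inflammatory cytokines and 0 leukocyte markers in DU145, where no filter gave 2 CC and CX3C chemokines and 2 leukocyte markers. The cause was not tested. Of the values of single genes and of counts in 1 direction, 500 kept their direction and side of the threshold, 7 lost a call, 6 gained one and 5 counts moved by over 1.5 times.

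The replicate numbers were not taken as pairs. In PC3 deviations of same-numbered libraries correlated at -0.00088, 0.0705 and 0.0451, and not every library correlated best with its own number. DU145 has 2 such numbers (0.113 and 0.335, fixed in part by centring). With the replicate number as a block 740 genes were called in PC3 and 1517 in DU145. CXCL8 in DU145 gained a call (0.98), and no call of another tested member in either line was lost or gained. Members near the floor (CCL2, CCL20 and, in PC3, IL6 and IL1A) are limited by depth.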
